A study of Mus musculus with 6 samples.

Results

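The DEAD box and DEAH box RNA helicases were read here as a family in ribosome footprints of mouse blood progenitors. The family comprised every protein-coding gene of the deposited table whose symbol begins with Ddx or Dhx followed by a digit. This gave 53 genes, 37 named Ddx and 16 named Dhx, of 21970 protein-coding genes and 56748 genes listed in all. All 53 had at least 1 read in the 6 libraries, and 52 reached the mean of 1 normalized read that was needed for a test. Members were chosen by their names and not by their values, and Mov10, a helicase of another family, is not among them.

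The cells were labelled by genotype as wild type (WT) or Mov10 knockout (Mov10_KO), with 3 libraries of each, and both genotypes had received 4.5 Gy of ionizing radiation 12 days before. They were gated as Lin-c-Kit+, that is without markers of mature blood lineages and with the stem cell factor receptor c-Kit, and the labels call them hematopoietic stem cells. No unirradiated group was analysed here, and the sources used here give neither the age, sex or strain of the mice nor how the knockout allele was built. They also leave unsaid whether the 3 libraries of a genotype came from different mice, so p-values measure only the spread between these libraries, which may be technical. Ribosome profiling counts the mRNA fragments, here 24 to 36 nt long, that ribosomes protect from RNase I. A level is given in normalized reads, the deposited unit, which is reads divided by 1 size factor per library. It depends on the amount of the mRNA, on its translation and on the share of cells that express it. Fewer expressing cells and less footprint per cell cannot be told apart in these bulk samples.

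RNA helicases of this superfamily bind RNA and use ATP to open short duplexes or to strip proteins from RNA. DEAD box proteins are named after the amino acids of a conserved ATPase motif and mostly melt local duplexes, whereas DEAH box proteins tend to travel along a strand. Members drive ribosome assembly in the nucleolus, remodelling of the spliceosome, export of mRNA, initiation of translation, mRNA storage and decay, and the sensing of viral RNA. In blood, DDX41 is known in humans for inherited variants that predispose to myeloid neoplasms.

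Depth went with genotype, since each WT library held between 2260348 and 2499634 reads and each knockout library between 1118345 and 1352517. Family members took 19198 to 21613 of these reads in WT and 11320 to 14066 in the knockout. The floor of 3 reads stood at 1.84 to 2.04 normalized reads in WT and at 4.02 to 4.85 in the knockout. Reads had no molecular identifiers, so this floor covers counting error only. Mov10 itself stood at 110.4, 106 and 104 normalized reads in the WT libraries and 51.0, 89.0 and 46.3 in the knockout libraries. The groups did not overlap, the log2 difference was -0.84 (SE 0.27, adjusted p = 0.0598) by limma and missed the threshold of 0.05, and footprints remained in every library labelled knockout. Kit, which defines the gate, was at 1099 ± 15.8 in WT and 1122 ± 35.7 in the knockout (SD, n = 3), and none of the 10 tested stem and progenitor markers passed the test. Over the alternative settings described below, the log2 difference of Kit ran from -0.43 to 0.23. Its lowest limma adjusted p among them was 0.00258, so the likeness of Kit depends on the setting. Sums of the 11 markers listed overlapped, at 2593 to 2796 in WT and 2681 to 2745 in the knockout. Without Ptprc, the gene that differed most, they did not overlap, at 1576 to 1607 and 1456 to 1569, an alternative chosen after seeing the data. Procr and Slamf1, markers of long-lived stem cells, had means of 1.30 and 1.29 normalized reads in WT and 0.929 and 0.447 in the knockout, all below the floor.

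Markers of other blood lineages differed between the genotypes. The summed level of 8 B lineage markers was 963 to 1023 in WT and 2054 to 2279 in the knockout, and 6 of the 8 passed the test, all higher. For 7 erythroid markers the sums were 2808 to 2872 and 4747 to 4887, with 6 higher. Those of 8 mature neutrophil markers were 9710 to 10695 in WT and 7184 to 7855 in the knockout, with 4 lower and 2 higher. Sums of 5 early myeloid markers were 22207 to 27268 in WT and 39368 to 41264 in the knockout, with 2 higher and 1 lower, and those of 5 mast cell and basophil markers were 985 to 1117 and 1265 to 1428, with 2 higher. The separation of the last 3 sums rested on single genes, as sums without the gene that differed most showed, an alternative chosen after seeing the data. Without S100a8 the neutrophil sums overlapped, at 7503 to 8335 in WT and 6762 to 7546 in the knockout. So did the early myeloid sums without Mpo, at 10754 to 13035 and 11054 to 11410, and the mast cell and basophil sums without Cpa3, at 671 to 743 and 680.1 to 798. The B lineage sums without Ighm and the erythroid sums without Slc4a1 did not overlap, at 211 to 243 and 676 to 893, and at 2523 to 2550.5 and 3722 to 4049. For T cells 0 of 6 markers passed, with sums of 63.8 to 86.3 and 66.6 to 92.5. No marker of these lists was at 0 in a whole group. The part of cell composition in the helicase differences was not tested.

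Of the 52 members tested, 15 were higher in the knockout, 4 were lower and 33 did not pass limma's test at an adjusted p under 0.05. Over all 17114 genes tested, 10.3% were called higher, 10.9% lower and 21.2% in either direction. The median log2 difference, knockout over WT, was 0.18 over the members and -0.17 over all genes. At a mean of 50 normalized reads or more, 35.3% of protein-coding genes were called, 21.3% higher and 14.0% lower, with a median of 0.0031, and the 43 members at that level held 15 of the higher and 3 of the lower calls. The direction of the median turned with the scaling, since dividing by library totals gave -0.051 over the members and -0.39 over all genes. The family took 0.890% ± 0.0109 of the protein-coding reads in WT and 1.06% ± 0.0343 in the knockout (SD, n = 3), a ratio of 1.19 that was given no test. The median coefficient of variation between libraries was 5.80% in WT and 20.2% in the knockout over the members, and 15.9% and 51.1% over all genes. The knockout coefficient was the larger in 48 of 51 members, a share that was not computed over all genes. The knockout libraries were also the shallower ones, and the part of depth in this spread was not tested.

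**Figure D1:**
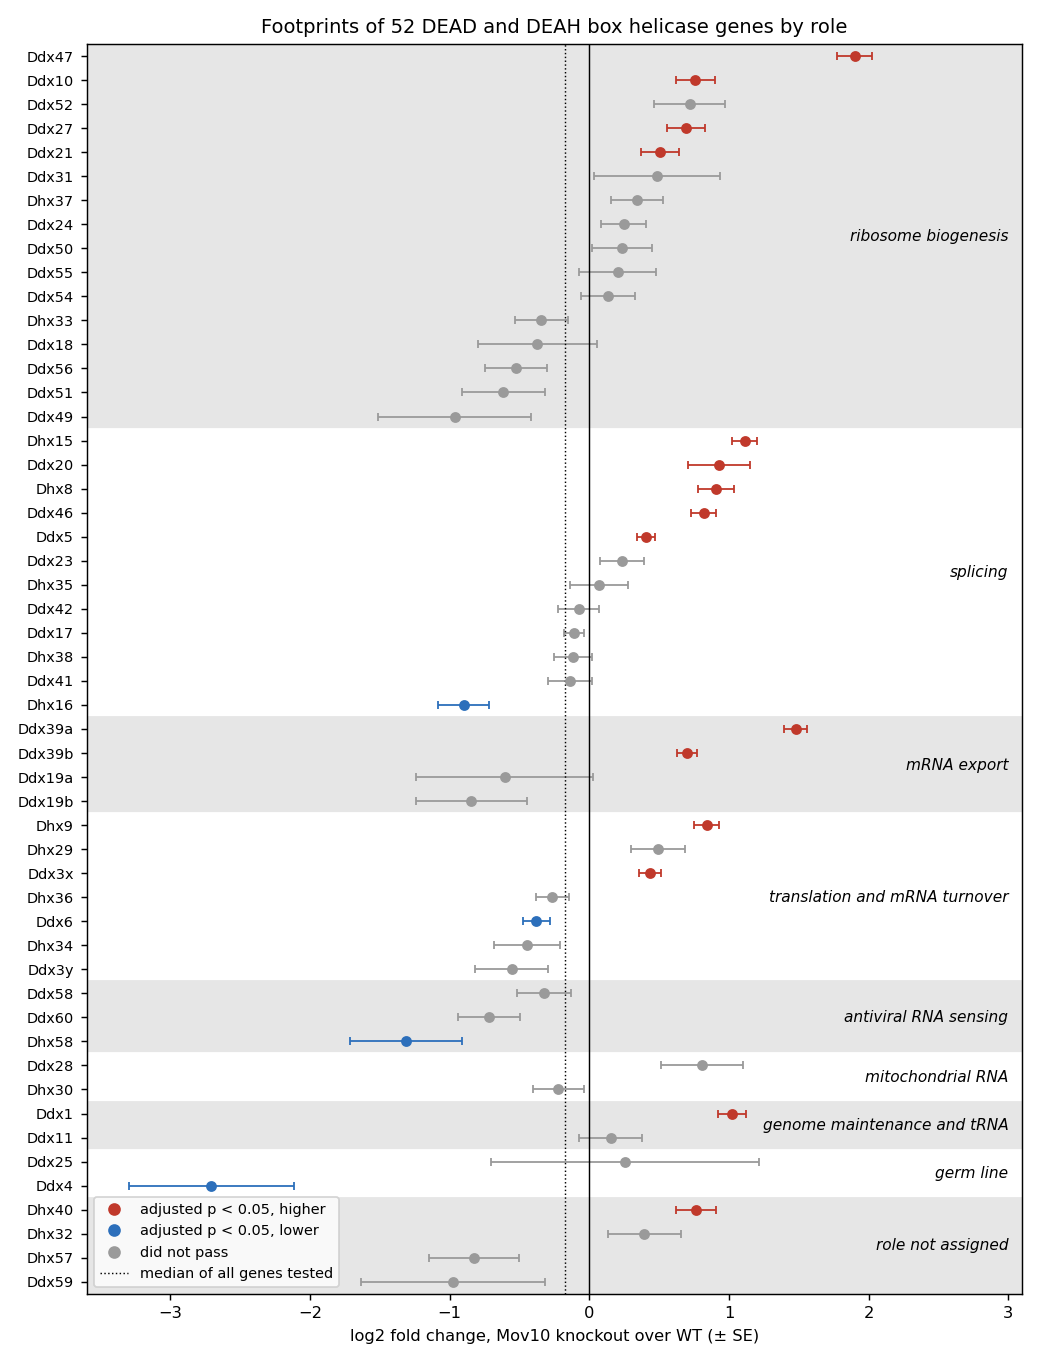
Each point is 1 of the 52 tested members, placed by its log2 difference, knockout over WT, on the horizontal axis and grouped by role on the vertical axis, with bars of 1 standard error and colour for the limma call. The 15 members called higher lie between 0.41 and 1.90, and the 4 called lower between -2.71 and -0.38.

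Ribosome biogenesis was the most populated role, with 16 members, of which 4 were higher, 0 were lower and 12 did not pass. Their median log2 difference was 0.24. Ddx47, needed for early cuts in the precursor of ribosomal RNA, had 155, 142 and 143 normalized reads in the WT libraries and 526, 505 and 624 in the knockout libraries. Every knockout library lay above 500 and every WT library at or below 155, and the knockout level was 3.76-fold higher, the highest ratio among the called members. The log2 difference was 1.90 (SE 0.12, adjusted p = 3.32e-05). Ddx47 (chromosome 6, 134988575 to 135000739 on GRCm39) went from rank 31 to rank 11 of the family when the members were ordered by normalized reads per kb of gene length. The length used was the deposited one, 6652 bases for Ddx47, and not the genomic span. The order of the members depends on that length as well as on the reads. 

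Ddx10, a nucleolar helicase of small-subunit assembly, had 168, 164 and 153 normalized reads in the WT libraries and 315, 269 and 242 in the knockout libraries. It was 1.71-fold higher, with a log2 difference of 0.76 (SE 0.14, adjusted p = 0.00775), and the groups stood apart. Ddx27, which acts at the far end of the ribosomal RNA precursor, had 183, 195 and 181 normalized reads in the WT libraries and 280.3, 353 and 276 in the knockout libraries, 1.63-fold higher with a log2 difference of 0.69 (SE 0.14, adjusted p = 0.00986). Ddx21, which couples transcription of ribosomal RNA to its processing, had 297, 309 and 283 normalized reads in the WT libraries and 491, 430.3 and 355 in the knockout libraries. It was 1.43-fold higher, with a log2 difference of 0.51 (SE 0.13, adjusted p = 0.0303), and its knockout replicate 3 lay nearest to the WT range. These calls depended on the libraries included and, for all of Ddx10, Ddx27 and Ddx21, on limma's variance trend, without which the adjusted p was 0.0594, 0.0745 and 0.173. Without WT replicate 3 the adjusted p was 0.0554 for Ddx10 and 0.0624 for Ddx27, and without WT replicate 1 it was 0.0546 for Ddx27. Ddx21 had 0.108, 0.1004 and 0.137 when WT replicate 1, 2 or 3 was left out, 0.0575 when knockout replicate 2 was, 0.0632 under TMM scaling and 0.171 with library totals.

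Of the 12 ribosome biogenesis members that did not pass, 7 had a log2 difference above 0 and 5 below it. Ddx52, a small-subunit factor, was at 94.5 ± 10.7 in WT and 162 ± 58.7 in the knockout, with a log2 difference of 0.72 (adjusted p = 0.0797). It was called higher by edgeR (adjusted p = 0.0349), by DESeq2 (0.0356) and in the authors' deposited table (0.0337). Ddx24, a nucleolar helicase, was at 352 ± 28.5 in WT and 423 ± 95.8 in the knockout, with a log2 difference of 0.24 (adjusted p = 0.325). Ddx56, a large-subunit assembly factor, was at 122 ± 19.0 in WT and 85.4 ± 17.7 in the knockout, with a log2 difference of -0.53 (adjusted p = 0.137). The log2 differences in this role ran from -0.96 for Ddx49 to that of Ddx47.

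Helicases of splicing numbered 12, with 5 higher, 1 lower and 6 that did not pass, and the members that act on the assembled spliceosome differed in direction. Dhx15, which takes the spliceosome apart after the intron is cut out, had 659.6, 686 and 593 normalized reads in the WT libraries and 1467, 1459 and 1268 in the knockout libraries. Even the lowest knockout library was far above the WT range, and Dhx15 (chromosome 5, 52307545 to 52347856 on GRCm39) was 2.16-fold higher, with a log2 difference of 1.11 (SE 0.091, adjusted p = 0.000108). Dhx8, which releases the joined exons from the spliceosome, had 192, 176 and 167 normalized reads in the WT libraries and 349, 357 and 299.5 in the knockout libraries, 1.88-fold higher with a log2 difference of 0.90 (SE 0.13, adjusted p = 0.00212). Dhx16, which activates the spliceosome for the first step, had 356, 484 and 407 normalized reads in the WT libraries and 190.4, 285 and 198 in the knockout libraries. All 3 knockout libraries were below the WT range, Dhx16 (chromosome 17, 36190711 to 36203562) was 1.85-fold lower, and the log2 difference was -0.90 (SE 0.18, adjusted p = 0.0110). Per kb of gene length Dhx16 ranked 6 in WT and 17 in the knockout. Dhx38, which acts between the steps of Dhx16 and Dhx8, was at 207 ± 19.4 in WT and 190.3 ± 13.6 in the knockout, with a log2 difference of -0.12 (adjusted p = 0.588).

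Ddx46, a helicase of the U2 snRNP at the branch site, had 436, 440.0 and 448 normalized reads in the WT libraries and 856, 752 and 734 in the knockout libraries. It was 1.77-fold higher without overlap, with a log2 difference of 0.82 (SE 0.091, adjusted p = 0.000575). Ddx20, a partner of SMN in the assembly of snRNPs, had 83.1, 69.3 and 74.3 normalized reads in the WT libraries and 123, 194 and 126 in the knockout libraries, 1.96-fold higher with a log2 difference of 0.93 (SE 0.22, adjusted p = 0.0207). Ddx5, a coregulator of transcription and splicing, had 1069, 1057 and 1049 normalized reads in the WT libraries and 1395, 1360.3 and 1456 in the knockout libraries. The rise was 1.33-fold, the lowest of the 15, with a log2 difference of 0.41 (SE 0.063, adjusted p = 0.00326), which turned to -0.070 after cyclic loess and was 0.18 (adjusted p = 0.0698) with library totals. Ddx17, its close paralog, was at 970.1 ± 33.3 in WT and 899 ± 45.0 in the knockout, with a log2 difference of -0.11 (adjusted p = 0.329), and stood at -0.53 (adjusted p = 0.00214) after cyclic loess, at -0.34 (adjusted p = 0.0140) with library totals and at 0.086 with upper-quartile scaling. Ddx23, a helicase of the U5 snRNP, Ddx41 and Ddx42, both found with the spliceosome, did not pass, with log2 differences of 0.23 (adjusted p = 0.342), -0.14 (adjusted p = 0.570) and -0.078 (adjusted p = 0.748). The call of Dhx16 was lost without WT replicate 2 (adjusted p = 0.0714) and without WT replicate 3 (0.0643), and that of Ddx20 without WT replicate 1, 2 or 3 in turn (0.0693, 0.101 and 0.0926) and with library totals (0.0515).

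The pair that loads export factors onto spliced mRNA was higher, and the pair that acts at the nuclear pore did not pass. Ddx39a had 478, 450.4 and 445 normalized reads in the WT libraries and 1270.0, 1200.2 and 1365 in the knockout libraries. All knockout libraries were above 1200 and no WT library exceeded 478, so that Ddx39a (chromosome 8, 84441806 to 84453521 on GRCm39) was 2.79-fold higher, with a log2 difference of 1.48 (SE 0.082, adjusted p = 1.60e-05). Ddx39b, the member of the TREX export complex also known as UAP56, had 1395, 1394 and 1451 normalized reads in the WT libraries and 2535, 2197 and 2162 in the knockout libraries. It was 1.63-fold higher without overlap, with a log2 difference of 0.70 (SE 0.074, adjusted p = 0.000443), and was not called after cyclic loess, at 0.13 (adjusted p = 0.264). Per kb of gene length Ddx39b was the highest member in both genotypes, with 374 in WT and 607 in the knockout, while Ddx39a went from rank 7, at 88.8, to rank 2, at 248. Ddx39a shares 3642 bases with Adgre5 on the opposite strand, and whether counting used the strand is not given in the sources used here. Adgre5 was at 325 ± 14.1 in WT and 294 ± 51.5 in the knockout. Ddx19a and Ddx19b, which release mRNA from export factors at the pore, had overlapping and separate groups, respectively. Ddx19a was at 33.2 ± 1.30 in WT and 28.8 ± 26.2 in the knockout, with a log2 difference of -0.61 (adjusted p = 0.542). Ddx19b was at 37.1 ± 5.63 in WT and 21.0 ± 7.19 in the knockout, with one of -0.85 (adjusted p = 0.175). They are near copies of each other, so their reads may have been split between them.

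Among 7 helicases of translation and mRNA turnover, 2 were higher, 1 was lower and 4 did not pass. Dhx9, also called RNA helicase A, which acts on double-stranded RNA in transcription and translation, had 1131, 1018 and 1079 normalized reads in the WT libraries and 2142, 1926 and 1728 in the knockout libraries. It was 1.80-fold higher without overlap, with a log2 difference of 0.84 (SE 0.089, adjusted p = 0.000439). Ddx3x, which helps ribosomes to scan structured mRNA leaders, had 662, 617 and 664 normalized reads in the WT libraries and 893, 907 and 831 in the knockout libraries, 1.35-fold higher with a log2 difference of 0.44 (SE 0.079, adjusted p = 0.00668). Both groups were tight for Ddx3x, and the difference fell to 0.066 (adjusted p = 0.595) after cyclic loess and to 0.21 (adjusted p = 0.0893) with library totals. Ddx6, the P-body helicase that represses translation and promotes decapping, had 599, 614 and 597 normalized reads in the WT libraries and 419.7, 476 and 499 in the knockout libraries. All knockout libraries lay below 500, beneath the WT range, and Ddx6 was 1.30-fold lower with a log2 difference of -0.38 (SE 0.095, adjusted p = 0.0249). The adjusted p of Ddx6 was 0.0897, 0.112 and 0.106 without WT replicate 1, 2 or 3 in turn, and 0.218 with upper-quartile scaling. Dhx29, an initiation helicase, Dhx36, which unwinds G-quadruplexes, and Dhx34, a factor of nonsense-mediated decay, did not pass, with log2 differences of 0.49 (adjusted p = 0.105), -0.27 (adjusted p = 0.157) and -0.45 (adjusted p = 0.220).

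The 3 helicases placed here under antiviral RNA sensing had lower means in the knockout, and 1 passed the test. Each member was given a single role, so members placed under other roles may also take part in sensing and are not counted here. Dhx58, also called LGP2, a regulator of the RIG-I-like receptors, had 80.5, 70.0 and 70.9 normalized reads in the WT libraries and 17.4, 25.9 and 53.5 in the knockout libraries. The highest knockout library, replicate 3, was below the lowest WT library, and Dhx58 (chromosome 11, 100585710 to 100595097 on GRCm39) was 2.29-fold lower with a log2 difference of -1.31 (SE 0.40, adjusted p = 0.0495). This call lay at the threshold and was kept when knockout replicate 3 was left out (adjusted p = 0.00652), while leaving out knockout replicate 1 or 2 gave 0.0724 or 0.0895, and the values were 0.195, 0.167 and 0.168 without WT replicate 1, 2 or 3 in turn. With a pseudocount of 0.1, no filter, upper-quartile scaling, thinning to equal depth or cyclic loess the adjusted p was 0.0623 to 0.0882. Ddx60, an interferon-induced helicase, had 151, 128 and 154 normalized reads in the WT libraries and 118, 74.4 and 75.2 in the knockout libraries, with a log2 difference of -0.72 (SE 0.22, adjusted p = 0.0518), which just missed the threshold that edgeR's test passed (adjusted p = 0.0467). Ddx58, the receptor RIG-I, had 123, 128 and 135 normalized reads in the WT libraries and 87.2, 128 and 95.5 in the knockout libraries, with overlapping groups and a log2 difference of -0.33 (SE 0.19, adjusted p = 0.271). Ifih1, also called MDA5, the third receptor of this group, is not named as a Ddx or Dhx gene in the table and was at 125 ± 3.81 in WT and 114 ± 46.5 in the knockout, with a log2 difference of -0.22 (adjusted p = 0.629).

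Interferon-stimulated genes often carry a response element in their promoters, so the RefSeq promoters of GRCm38.p6, 300 bases from 250 upstream of the start, were searched on both strands for GAAA, any 2 bases and GAAA again, a core form of that element. Promoters were given for 47 of the 53 members and for 27025 genes, tested here or not, of which 3.99% held a match. Matches were found in 3 members, Ddx58, Ddx60 and Ddx49, and no promoter of Dhx58 was at hand. The promoter of Ddx60 held 2 copies. The windows of Ddx60 (chr8:61928027-61928086, plus strand) and Ddx58 (chr4:40239804-40239833, minus strand) are shown with the matched letters in capitals, as the promoters of the 2 sensors that did not pass.
Ddx60: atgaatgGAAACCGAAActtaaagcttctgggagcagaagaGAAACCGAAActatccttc
Ddx58: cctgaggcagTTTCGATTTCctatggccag
The match in Ddx58 is the reverse complement of the searched letters. A match is a description of these letters and shows no binding.

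Germ line helicases were read at or near the floor. Ddx4, the vasa gene of germ cells, had 3.25, 6.14 and 8.18 normalized reads in the WT libraries and 0, 0 and 0 in the knockout libraries. It had 5, 10 and 12 reads in the WT libraries and 0 in each knockout library. The WT mean was 1.33 times the mean knockout floor of 3 reads per library. WT replicate 1, at 3.25, lay below that floor, which was 4.02 to 4.85, so no lower bound of the fold is given. Its limma adjusted p was 0.0144, against 0.0832 by DESeq2 and 0.113 in the authors' deposited table, and edgeR's filter on low counts left it out. Without WT replicate 2 or 3 the adjusted p was 0.0677 or 0.0667. Ddx25, a testis helicase, did not pass, and Ddx43 had 3 reads in WT replicate 2 and none elsewhere, so that it was not tested.

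The other roles held few members. Ddx1, a subunit of the tRNA ligase complex, had 308, 282 and 294 normalized reads in the WT libraries and 555, 615 and 629 in the knockout libraries. The groups were far apart, and Ddx1 was 2.04-fold higher, with a log2 difference of 1.02 (SE 0.099, adjusted p = 0.000270). Dhx40, given no role here, had 123, 133 and 125 normalized reads in the WT libraries and 216, 196 and 239 in the knockout libraries, 1.71-fold higher with a log2 difference of 0.76 (SE 0.14, adjusted p = 0.00786), and the adjusted p was 0.0523 without WT replicate 3. Ddx11, a DNA helicase of sister chromatid cohesion, did not pass, with a log2 difference of 0.15 (adjusted p = 0.673). Neither did the mitochondrial ribosome assembly factors Ddx28 and Dhx30, at 0.80 (adjusted p = 0.0871) and -0.22 (adjusted p = 0.437). Ddx28 shares 2262 bases with Dus2 on the opposite strand, and Dus2 was at 55.3 ± 4.58 in WT and 59.4 ± 29.9 in the knockout. Dhx57, Dhx32 and Ddx59, also given no role, did not pass.

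**Figure D2:**
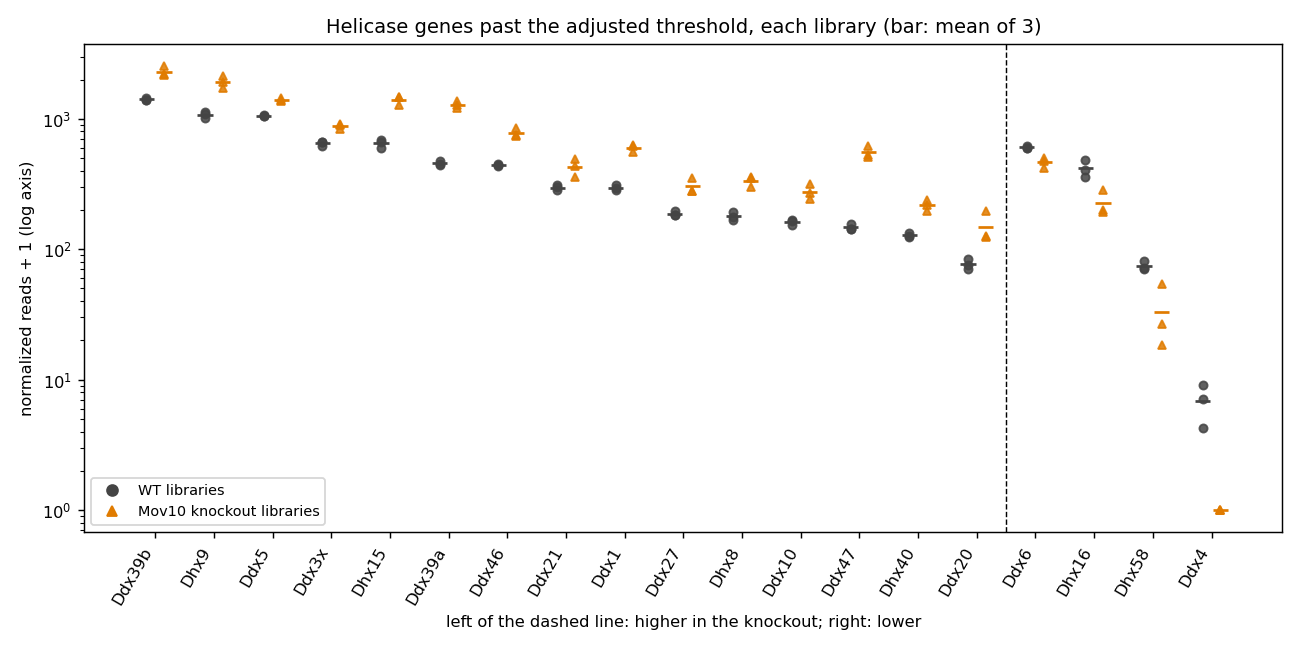
Normalized reads of the 19 called members in each of the 6 libraries, plus 1, on a log axis, with WT libraries as circles, knockout libraries as triangles and the mean of 3 as a bar, so that a level of 0 stands at 1. In each of the 19 the 3 knockout points lie on one side of the 3 WT points.

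Groups did not overlap in 31 members, 19 with all knockout libraries above WT and 12 with all below. Over all genes tested the groups did not overlap in 39.8%, with 16.9% above and 22.9% below, and at a mean of 50 or more in 54.7% of protein-coding genes, with 29.5% above and 25.1% below. Of the 19 called members, 10 stayed called whichever library was left out: Ddx39a, Ddx47, Dhx15, Ddx1, Dhx9, Ddx39b, Ddx46, Dhx8, Ddx5 and Ddx3x. On recovered reads, edgeR's quasi-likelihood test called 20 members, where 29.5% of its 10891 genes were called (16.5% higher and 13.0% lower). DESeq2 called 19, where 22.0% of 15041 were called (12.4% higher and 9.55% lower). Each shared 18 of the limma calls. Without limma's variance trend 8 members were higher and 1 lower, where 2672 of 17114 genes were called. Of the 19 member calls 8 remained, while Ddx39b, Ddx3x, Ddx5, Ddx10, Ddx20, Ddx21, Ddx27, Dhx40, Dhx16, Ddx6 and Dhx58 were lost, at adjusted p of 0.0506 to 0.232. By the authors' deposited table, 16 members were higher and 3 lower at an adjusted p under 0.05, and 18 of them were also called by limma. The share of all genes called by the authors' test is not given here, so these counts have no background beside them.

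Calls of higher level went with abundance across the whole table. Of genes with a mean of 1 to 5 normalized reads over the 6 libraries, 2.56% were called higher and 11.4% lower. The share called higher was 4.62% at 5 to 20 and 4.13% at 20 to 50, and rose from range to range above that. It was 8.97% at 50 to 100 reads, 18.6% at 100 to 200, 32.0% at 200 to 500, 52.9% at 500 to 1000 and 69.6% at 1000 and above. Members were called higher in 0 of 6, 2 of 16, 6 of 12, 3 of 5 and 4 of 4 in those last 5 ranges. The 4 members above 1000 are Ddx39b, Dhx9, Ddx5 and Dhx15, all described above. The members' counts thus climbed with abundance as those of the whole table did, in ranges that were set after the values were seen. After cyclic loess, which removes the trend of fold with abundance, 11 members were higher and 4 lower. Of 17114 genes, 3086 were called in this setting, 55.0% of them higher. Of the 19 member calls, 14 remained. Those lost were Ddx39b, Ddx3x, Ddx5, Ddx21 and Dhx58, and Ddx17 was newly called lower.

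**Figure D3:**
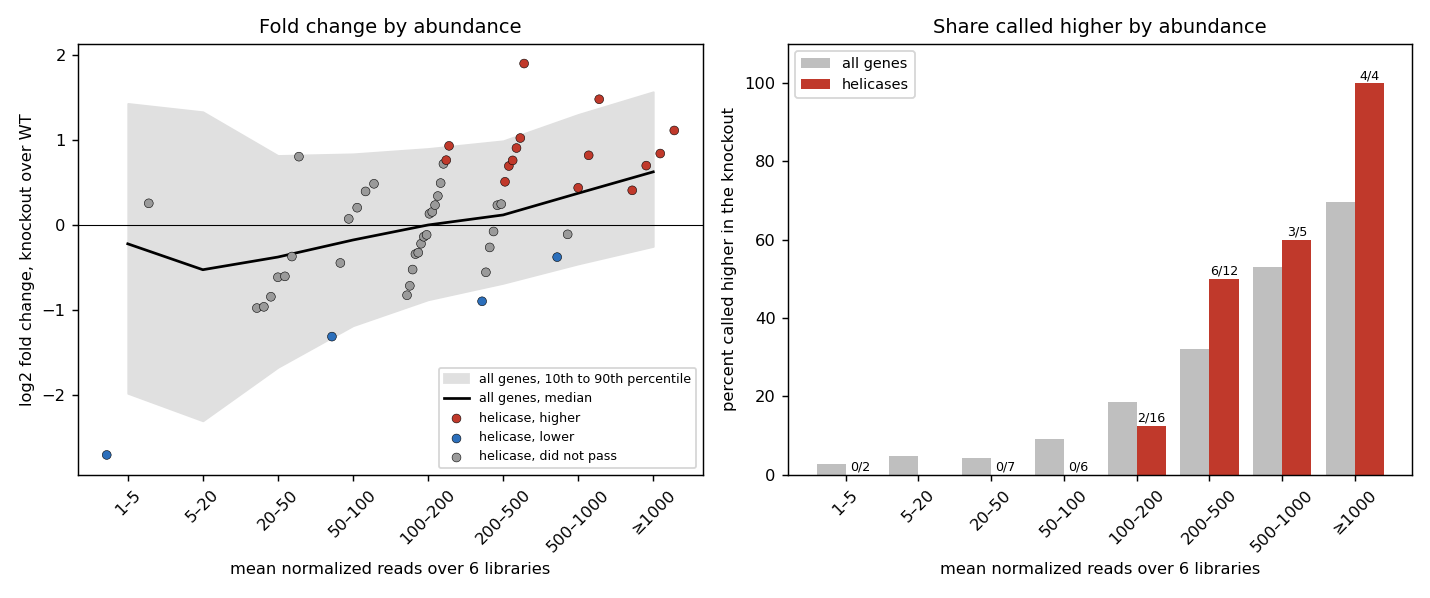
The left panel shows the log2 difference, knockout over WT, of each tested member, coloured by call, in 8 ranges of mean normalized reads, over the median (line) and the 10th to 90th percentiles (band) of all tested genes, with points spread sideways only to separate them. The right panel shows the percent of all genes (grey) and of members (red, with counts) called higher in each range, and the members called higher sit toward the abundant end, where the share of all genes called higher also climbs, from 4.13% at 20 to 50 reads to 69.6% at 1000 and above.

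Ratios between related members are free of any single scaling factor per library, and 7 pairs were compared. They are not free of the trend of fold with abundance. The median log2 difference of all genes was -0.0010 at 100 to 200 reads, the range of Dhx30, and 0.62 at 1000 and above, that of Dhx9. The part of this trend in the ratios was not tested. Where the genes of a pair are near copies, reads may also have been split between them, which was not tested either. The ratio of Ddx39a to Ddx39b reads was 0.343, 0.323 and 0.307 in the WT libraries and 0.501, 0.546 and 0.631 in the knockout libraries. Every knockout ratio was above every WT ratio, with means of 0.324 ± 0.0180 and 0.560 ± 0.0661 (SD, n = 3). The ratio of Ddx5 to Ddx17 was 1.15, 1.07 and 1.06 in the WT libraries and 1.64, 1.45 and 1.60 in the knockout libraries, again without overlap. Dhx9 to Dhx30 gave 7.35, 6.88 and 7.65 in the WT libraries and 20.0, 16.3 and 10.9 in the knockout libraries. Ddx3x, on the X chromosome, to its Y-linked copy Ddx3y gave 2.60, 2.63 and 2.83 in the WT libraries and 3.96, 4.88 and 7.97 in the knockout libraries, where the knockout libraries spread more than the WT libraries. In these 4 pairs the exact two-sided permutation test gave p = 0.1, the smallest that 3 against 3 libraries allows, and 0.175 after Benjamini-Hochberg adjustment over the 7 pairs. The ratios of Ddx19a to Ddx19b, Ddx21 to Ddx50 and Dhx36 to Dhx57 overlapped between the genotypes, with exact permutation p of 0.9, 0.5 and 0.4. Ddx50, a nucleolar paralog of Ddx21, had a log2 difference of 0.23 (adjusted p = 0.482) and Dhx57 one of -0.83 (adjusted p = 0.104).

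**Figure D4:**
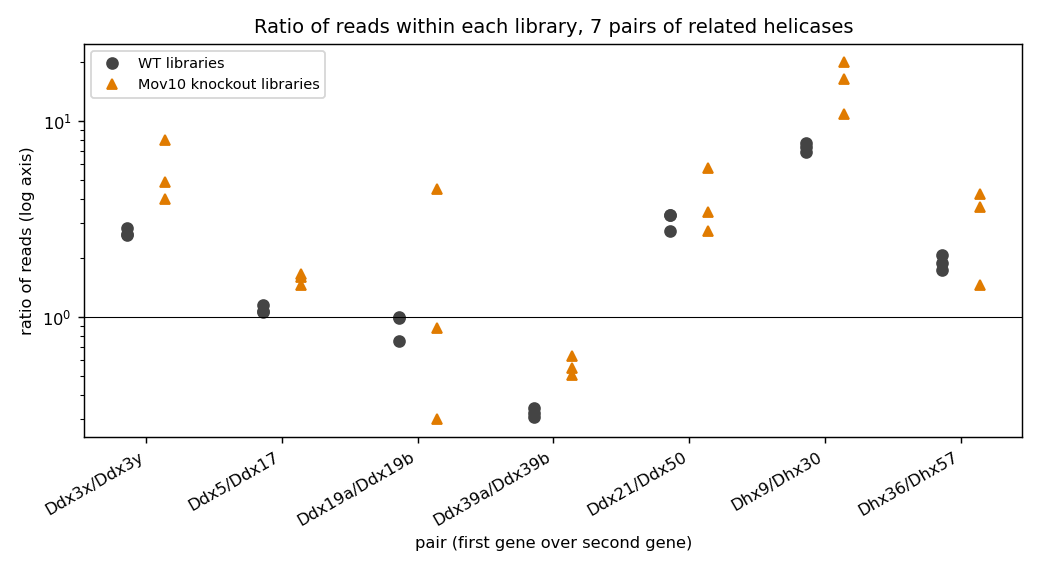
Ratio of reads between the genes of each of 7 related pairs in every library, on a log axis, with WT and knockout in separate colours. The WT points of a pair lie close together, and the knockout points lie wholly above them in Ddx3x/Ddx3y, Ddx5/Ddx17, Ddx39a/Ddx39b and Dhx9/Dhx30.

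Other sex-linked genes moved beside the Ddx3x and Ddx3y ratio. Ddx3y was at 241 ± 11.4 in WT and 172 ± 61.8 in the knockout, with a log2 difference of -0.56 (adjusted p = 0.168). Xist, the RNA that silences an X chromosome in female cells, was at 113 ± 15.7 in WT and 354 ± 73.4 in the knockout, with a log2 difference of 1.63 (adjusted p = 0.000631). Xist codes for no protein, so its reads may include fragments that ribosomes did not protect. The part of such fragments in the levels given here was not tested. The Y-linked genes Kdm5d and Eif2s3y had lower levels in the knockout. Kdm5d was at 70.9 ± 6.71 in WT and 16.8 ± 4.32 in the knockout, with a log2 difference of -2.04 (adjusted p = 0.00380). Eif2s3y was at 73.2 ± 3.70 in WT and 23.4 ± 1.44 in the knockout, with one of -1.61 (adjusted p = 0.00442). Uty, also Y-linked, did not pass, with -1.13 (adjusted p = 0.132). Xist and Y-linked reads were present in both groups. The part of the sex of the mice in the call of Ddx3x, and in the Ddx3x to Ddx3y ratio, was not tested.

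Some members that were higher, and as many that did not pass, carry the ETS core CCGGAAGT in their promoters. This sequence is bound by ETS family factors at many housekeeping promoters. It was found on either strand in 10 of the 47 members with a promoter and in 4.31% of the 27025 genes. Those genes were not limited to the ones tested here, and no share over genes as abundant as the members is given. Of the 10, 5 were called higher, Ddx27, Ddx39b, Ddx47, Dhx8 and Dhx9, and 5 did not pass, Ddx17, Ddx50, Dhx30, Dhx34 and Dhx37. Of the 47 members with a promoter, 14 were called higher. Windows of the 5 higher members are shown so that the shared letters, in capitals, can be compared: Dhx9 (chr1:153487738-153487767, minus strand), Ddx27 (chr2:167015300-167015329, plus strand), Ddx47 (chr6:135011609-135011638, plus strand), Dhx8 (chr11:101732964-101732993, plus strand) and Ddx39b (chr17:35241766-35241795, plus strand), all on GRCm38.p6.
Dhx9: aggtttggcgcCCGGAAGTggttcaagccc
Ddx27: actcgctacgtCCGGAAGTggctgcttctt
Ddx47: gcctcggccccACTTCCGGagcccacgagc
Dhx8: cgagcgccgacCCGGAAGTggaagctgtgg
Ddx39b: aggccggggcgagcctggaaCCGGAAGTga
Ddx47 carries the reverse complement. The search covered 7 motifs chosen after the footprint values were seen. The E-box CACGTG was in 7 members and 8.09% of genes, TATAAA in 6 and 15.7%, CCAAT in 23 and 41.1%, the NRF1 site, GCGCA followed at once by TGCGC, in 2 and 1.07%, and the YY1 site, AAGATG followed at once by GCGGC, in 1 and 0.755%.

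Helicases outside the naming rule were read alongside, where 10.3% of all genes tested were called higher and 10.9% lower. Of 7 tested genes grouped here with the DEAD and DEAH box helicases under another symbol, 0 were higher and 1 was lower. The motif itself was not checked in these genes. Eif4a2, a paralog of the initiation helicase Eif4a1, had 984, 939.6 and 997 normalized reads in the WT libraries and 441, 361 and 398 in the knockout libraries, with a log2 difference of -1.29 (SE 0.096, adjusted p = 6.95e-05) and no overlap. Eif4a1 and Eif4a3, a core subunit of the exon junction complex, did not pass, with log2 differences of 0.20 (adjusted p = 0.249) and -0.015 (adjusted p = 0.9503). Of 12 tested Upf1-like and Ski2-like helicases, the group that includes Mov10, 1 was higher and 2 were lower. Snrnp200, the spliceosomal helicase also called Brr2, had 889, 843 and 896 normalized reads in the WT libraries and 2626, 2447 and 2301 in the knockout libraries, 2.81-fold higher with a log2 difference of 1.49 (SE 0.070, adjusted p = 7.56e-06). Helz, a relative of Mov10, had 236, 226 and 204 normalized reads in the WT libraries and 85.8, 108 and 103 in the knockout libraries, with a log2 difference of -1.16 (SE 0.16, adjusted p = 0.00172). Upf1, the helicase of nonsense-mediated decay, was at 621 ± 11.1 in WT and 461 ± 84.7 in the knockout, with a log2 difference of -0.44 (SE 0.13, adjusted p = 0.0417), and without single libraries its adjusted p ran from 0.00450 to 0.151.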

How the data were processed

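The authors deposited 1 table with a signal value per gene and library and their own log2 fold changes and p-values (tool not given in the sources used here). The submitters' processing notes name GRCm39 as the build. Per the labels' protocols, footprints of 24 to 36 nt came from cycloheximide-treated cells digested with RNase I. The deposited signal values are whole multiples of 1 step per library (99.98% of values above 0 were within 0.05 read), so reads were recovered, and Rps29, Camp, Igkc, Ssr4 and Rpl27, which are not, were left out.

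The plan allowed for raw counts, and the deposited unit led to limma 3.58.1 (R 4.3.3) with a variance trend on log2(value + 1), a scale that understates the change of low genes. Genes with a mean of at least 1 were fitted on all 6 libraries with p-values adjusted by Benjamini-Hochberg over all of them and a threshold of 0.05. A procedure check on simulated data was run. edgeR 4.0.16 and DESeq2 1.42.0 were run on recovered reads as alternatives, beside other scalings, filters, thinning, a replicate block and leaving out each library. Pair ratios used scipy 1.17.1, and figures matplotlib 3.10.9. Promoters came from RefSeq (GRCm38.p6).

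Named genes are Mov10, every called member, the 8 uncalled members with the most reads per kb, both genes of each pair, members without a read in a whole group and related helicases past the threshold; others named were chosen after their values were seen. The members and lists were chosen with earlier results of these data known.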

Additional observations from a re-analysis of the deposited data

How the results depend on the processing

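Counts depended on the scaling, the variance trend and the WT libraries. In place of 15 members higher and 4 lower, no variance trend gave 8 and 1, library totals 11 and 9, and upper-quartile scaling 18 and 2. Over all genes these settings called 2672, 4172 and 3589 in turn, in place of 3628. An adjusted p under 0.01 gave 13 and 0, with 1427 genes called. Leaving out 1 library gave 10 to 17 higher, 0 to 6 lower and 1239 to 4585 genes, with 1449, 1284 and 1239 without WT replicates 1, 2 and 3. The share of all calls that were higher was 48.4%, against 62.7% with upper-quartile scaling, 30.8% with library totals and 65.4%, 68.4% and 67.5% without WT replicates 1, 2 and 3. These scalings moved the median of all genes by 0.18 and -0.22, and cyclic loess by 0.17. Mov10 passed at -0.84 (adjusted p = 0.0330) over genes with a mean of at least 50, at -0.93 (0.0429) with TMM scaling, at -1.06 (0.0247) with library totals and at -1.12 (0.00692) without knockout replicate 2, in a range of -1.12 to -0.66 over libraries left out. The sign turned with upper-quartile scaling for Ddx17 (0.086), Ddx41 (0.056), Ddx42 (0.12) and Dhx38 (0.079), with cyclic loess for Ddx5 (-0.070), without knockout replicate 1 for Ddx19a (0.052, in a range of -1.30 to 0.052 over libraries left out) and without knockout replicate 2 for Ddx42 (0.023, in a range of -0.20 to 0.023). The replicate block gave 15 higher, 6 lower and 3245 genes; same-numbered libraries had deviations correlated at -0.0285 to 0.0009, so the numbers were not taken as pairs. The cause of these shifts was not tested. Other genes in the text also took both signs over the alternatives, Ddx11 (-0.077 to 0.41), Ddx25 (-0.10 to 0.97), Ifih1 (-0.51 to 0.11), Eif4a1 (-0.031 to 0.40), Eif4a3 (-0.25 to 0.18), Kit (-0.43 to 0.23) and Procr (-1.20 to 0.20). Results per gene and setting were counted over the genes picked by the rule for named genes, Mov10 apart, and not over the whole family. Of these, 657 kept direction and side of the threshold, 65 no longer passed, 7 newly passed and 7 turned sign. Depth limits members below the floor of 3 reads.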
